A study of Homo sapiens with 2 samples.

Results

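The 36 genes described here encode the enzymes that build the precursor of N-linked glycans on the endoplasmic reticulum (ER) membrane and the enzymes that first trim it. They were chosen by name, and each was found exactly once in the gene tables of wild-type (WT) and PERK-KO HEK293 cells, among 25277 rows with 23614 distinct gene names. HEK293 is a human embryonic kidney line. PERK is an ER-resident kinase of the unfolded protein response, and the labels give the genotypes as wild-type and PERK-KO. The PERK-KO cells were made by the study with CRISPR/Cas9 and a guide against the PERK gene, EIF2AK3, and were grown from single cells, so that a clone stands for the genotype. WT and PERK-KO cells alike were kept for 12 h in OXPHOS medium before RNA isolation, a glucose-free medium with 10 mM galactose and 1 mM pyruvate, which favours oxidative phosphorylation over glycolysis. The files hold 1 sample per genotype and no sample in glucose medium. No gene therefore has a replicate error, no difference could be tested, and the genotype cannot be told apart from the clone, the culture or the library.

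N-linked glycosylation begins with a lipid, dolichol phosphate, on which a branched sugar chain is assembled. Sugars are first activated in the cytosol as UDP-N-acetylglucosamine (UDP-GlcNAc) and as mannose phosphates on the way to GDP-mannose. ALG enzymes add GlcNAc and mannose on the cytosolic face of the ER, and after the lipid has been flipped they add mannose and glucose on the lumenal face, where the sugars come from dolichol-phosphate mannose and dolichol-phosphate glucose. Oligosaccharyltransferase then moves the finished chain to nascent proteins. Glucosidases remove the glucoses, and UGGT puts a glucose back on misfolded glycoproteins so that calnexin and calreticulin can hold them, while slow mannose trimming marks those that fail to fold.

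The unit of all levels is FPKM, the fragment number scaled by transcript length and sequencing depth, which the authors computed with Cufflinks together with lower and upper confidence limits. The number of reads was not in the files. For the 36 genes the limits lay between 3.54% and 21.6% of the value away in WT cells and between 3.52% and 18.6% in PERK-KO cells. They were as wide as those of counts of 85.9 to 3234 fragments. These limits cover error within 1 library only. It is called counting error here, although it need not come from counting alone. EIF2AK3 itself had 5.61 FPKM (limits 5.11 to 6.12) in WT cells but 3.89 (3.44 to 4.34) in PERK-KO cells, so its RNA was at 0.693 of the WT level and not lost. The study examined its clones by immunoblotting, and the RNA level does not measure the protein. Of 6 genes listed as marks of the HEK293 line, VIM had 418 FPKM in WT cells against 378 in PERK-KO cells and NEFL 44.9 and 33.4, whereas IRS4, a docking protein long known from HEK293 cells, was near absent in WT cells at 0.121 FPKM and present in PERK-KO cells at 27.1. NEFM was at 0.662 and 5.21 FPKM, LIN28B at 4.16 and 7.05, and PAX2 under 1 in both samples. Kidney tubule, leukocyte and brown adipocyte markers were listed at 0 or stayed under 1 FPKM in both samples, and of the fibroblast markers COL1A1 had 4.97 and 4.62 while COL1A2 and DCN were at or near 0. HSPA5, which encodes the ER chaperone BiP, was at 161 FPKM in WT cells against 679 in PERK-KO cells. The part that these differences between the lines have in the values below was not tested. In bulk RNA, fewer cells that express a gene and less RNA per cell cannot be told apart.

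All 36 genes were detected above 1 FPKM in both samples, from 2.83 FPKM for ALG11 to 238 for PRKCSH in WT cells. The differences were of modest size and went both ways along the pathway. GFPT1, PGM3, UAP1, NUS1, DPAGT1, ALG2 and ALG12 were higher in PERK-KO cells, and DPM2 and DPM3 lower, by more than the fold threshold that the study set for its reduced genes, which rounds to 1.5-fold and is 0.58 on the log2 scale. These are 7 higher genes, or 19.4% of the 36, where 10.5% of all 14594 genes that reached 1 FPKM in either sample, the tested genes below, were past the same fold. The 2 lower genes are 5.56% of the 36, where 7.83% of all tested genes were lower. With the values rescaled to a median difference of 0 the numbers were 5 and 3, where 8.78% and 8.55% of all genes were past the threshold on either side. With both samples rescaled to the same summed FPKM they were 8 and 1, where 20.2% of all genes were higher and 3.50% lower, so that the 8 genes were near the share of all genes. The limits of the samples were apart, that is, the lower limit of one sample lay above the upper limit of the other, for 15 genes that were higher (41.7%, against 26.1% of all tested genes) and for 7 that were lower (19.4%, against 18.7%). The 9 genes past the threshold are all among these, and genes past the threshold with limits apart made up 8.21% of all tested genes on the higher side and 5.63% on the lower. The median log2 fold change, PERK-KO over WT, was 0.18 over the 36 genes and 0.04 over all tested genes. Against genes of the same transcript length, as described below, these medians were 0.05 and 0.00. The FPKM of all rows summed to 0.869 of the WT value in PERK-KO cells (-0.20 on the log2 scale), with 49.0% of the sum in WT cells against 43.9% in PERK-KO cells held by rows of at least 1000 FPKM, so a scaling to equal sums raises every log2 fold change by 0.20.

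**Figure D1:**
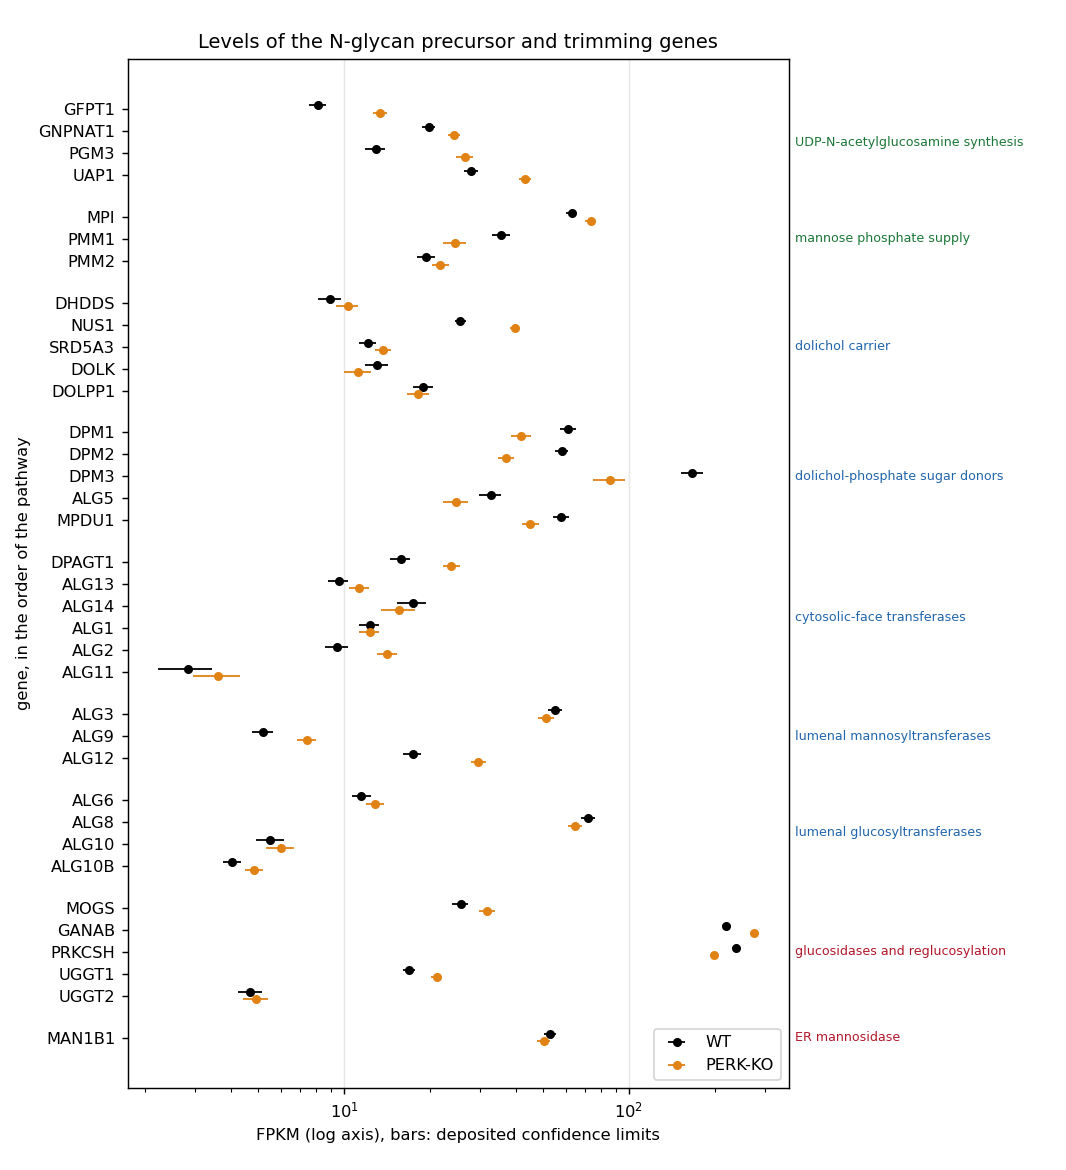
FPKM of the 36 genes in WT cells (black) and PERK-KO cells (orange) on a log axis, in the order of the pathway, with the deposited confidence limits as bars (1 sample per genotype). PRKCSH and GANAB stand highest in both samples, ALG11 lowest, and the orange points lie to the right of the black ones for the genes of UDP-GlcNAc synthesis and to the left for the dolichol-phosphate sugar donors.

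The 4 genes among the 36 that supply UDP-GlcNAc were higher in PERK-KO cells. All 4 had limits apart, and 3 of the 4 were past the threshold, with a median log2 fold change of 0.68. GFPT1, on chromosome 2 from 69546901 to 69614386 (GRCh37, here and for all gene positions from the files), makes glucosamine phosphate from fructose phosphate and glutamine and is the rate-limiting enzyme of the hexosamine pathway. Its FPKM was 8.07 (7.52 to 8.63) in WT cells against 13.4 (12.6 to 14.2) in PERK-KO cells, 1.66-fold higher (95% interval of the counting error 1.51 to 1.81). GNPNAT1, which acetylates the glucosamine, was at 19.9 (18.8 to 20.9) and 24.3 (23.1 to 25.5), higher by 1.22-fold (1.14 to 1.31) and thus within the threshold. PGM3, which isomerises the acetylated sugar phosphate and lies on chromosome 6 from 83874593 to 83903655, had the largest difference of the 36 genes. It rested on 12.9 FPKM (11.8 to 13.9) in WT cells against 26.6 (24.8 to 28.3) in PERK-KO cells, with a ratio of 2.07 (1.86 to 2.29). UAP1, which joins the sugar to UDP and lies on chromosome 1 from 162531296 to 162569633, was at 27.9 (26.3 to 29.5) and 43.3 (41.1 to 45.4), 1.55-fold higher (1.44 to 1.67). These 4 genes were thus all higher, by 1.22-fold at the least and 2.07-fold at the most. Against genes of the same transcript length, as described below, the median of the 4 was 0.43 and PGM3 alone was past the threshold. Outside the 36 genes, not all genes of UDP-GlcNAc supply were higher. GFPT2, the paralog of GFPT1, was at 5.85 FPKM in WT cells against 6.88 in PERK-KO cells, and NAGK at 16.4 and 14.3. The limits of both overlapped.

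The mannose branch did not move as a group. MPI, which converts fructose phosphate to mannose phosphate, was at 62.9 FPKM (60.1 to 65.7) in WT cells against 73.5 (70.3 to 76.8) in PERK-KO cells, with a ratio of 1.17. The paralogs PMM1 and PMM2 both move the phosphate of mannose to the position from which GDP-mannose is made, PMM2 being the enzyme on which glycosylation depends. PMM1, at 35.6 (33.0 to 38.1), was lower in PERK-KO cells at 24.5 (22.2 to 26.8), by 1.45-fold, whereas PMM2 had 19.4 (18.1 to 20.8) and 21.8 (20.3 to 23.4) with overlapping limits. The ratio of PMM1 to PMM2 went from 1.83 in WT cells to 1.12 in PERK-KO cells, a change by a factor of 0.613 (95% interval of the counting error 0.527 to 0.712). Their coding sequences are 68.4% identical over aligned bases and share no window of 50 bases, so few reads of one could be taken for the other.

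The unfolded protein response acts through short elements near transcription starts, so promoters were searched for them, and sequence before the start is shown for a few of the genes that hold them. RefSeq windows (GRCh38.p14) from 250 bases before to 50 after the start were matched by symbol for 34 of the 36 genes, all but ALG10 and MOGS, and were searched on both strands. The letters ACGTGG are the core of the element TGACGTGG that is known to be bound by XBP1 and ATF6. They stand in 9.72% of all windows of this length and in the windows of 15.7% of 9969 tested genes, and among the 34 genes in 14. All 4 UDP-GlcNAc genes are among these 14, with the letters after the start in UAP1 and GNPNAT1, and 4 of the 7 genes past the threshold on the higher side have them (GFPT1, PGM3, UAP1 and NUS1). By direction alone, 9 of the 20 genes with higher values in PERK-KO cells and 5 of the 14 with lower values have them, DPM3, 1 of the 2 past the threshold on the lower side, among the latter. The stretches below run 5′ to 3′ on the strand of the gene and end at the start or before it, and the capitals mark ACGTGG or its reverse complement. The first lies at chr6:83193266-83193298 on the minus strand, the next at chr2:69387377-69387432 on the minus strand and the last at chr6:117675383-117675438 on the plus strand.
PGM3: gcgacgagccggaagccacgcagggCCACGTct
GFPT1: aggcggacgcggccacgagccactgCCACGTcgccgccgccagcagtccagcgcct
NUS1: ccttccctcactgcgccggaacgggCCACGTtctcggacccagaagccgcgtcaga
A match is a run of letters and was not tested as a binding site. The full element TGACGTGG, of which ACGTGG is a part, was found in DHDDS alone. It stands in 0.729% of all windows and in those of 1.26% of tested genes. TGATGNAA, the element that ATF4 dimers bind, was found in none of the 34 genes. It stands in 3.62% of all windows and in those of 2.67% of tested genes.

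The lipid carrier is made by the cis-prenyltransferase of DHDDS, its catalytic subunit, and NUS1, the Nogo-B receptor that the subunit needs for activity. NUS1, on chromosome 6 from 117996617 to 118031886, was at 25.6 FPKM (24.6 to 26.7) in WT cells against 39.7 (38.3 to 41.1) in PERK-KO cells, 1.55-fold higher (1.47 to 1.64). DHDDS was at 8.92 (8.11 to 9.74) and 10.3 (9.34 to 11.2), with overlapping limits. The ratio of NUS1 to DHDDS was thus 2.87 in WT cells against 3.87 in PERK-KO cells, a change by 1.35-fold (1.18 to 1.54). SRD5A3, which reduces polyprenol to dolichol, had 12.1 and 13.7 FPKM, DOLK, which phosphorylates dolichol, 13.1 and 11.2, and DOLPP1, which recycles dolichol pyrophosphate, 19.0 and 18.2. The limits of all 3 overlapped between the samples, which is a stricter mark than the interval of the ratio, since the intervals of SRD5A3 and DOLK did not include 1. NUS1 alone among the 5 carrier genes had limits apart.

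The donors of lumenal sugars were lower in PERK-KO cells in every one of the 5 genes, all with limits apart and with a median log2 fold change of -0.55. DPM1, DPM2 and DPM3 form dolichol-phosphate mannose synthase, in which DPM1 is the catalytic subunit, DPM3 tethers it to the ER membrane and DPM2 stabilises DPM3. DPM1, on chromosome 20 from 49551405 to 49575060, was at 61.3 FPKM (57.5 to 65.2) in WT cells against 41.8 (38.5 to 45.2) in PERK-KO cells, lower by 1.47-fold. DPM2, on chromosome 9 from 130697374 to 130700763, was at 58.1 (55.2 to 61.0) and 37.1 (34.6 to 39.6), lower by 1.57-fold. DPM3, on chromosome 1 from 155112367 to 155112996, was at 167 (152 to 182) and 86.0 (75.1 to 96.9), lower by 1.95-fold, the largest difference on the lower side among the 36 genes. The 3 subunits were therefore all below their WT level, in a range from 1.47-fold to 1.95-fold, and DPM3 differed by more than DPM1, the ratio of DPM3 to DPM1 being 2.73 in WT cells against 2.06 in PERK-KO cells (factor 0.754, 0.628 to 0.904). The ratio of DPM2 to DPM1 was 0.947 and 0.887, and the interval of its change included 1 (0.822 to 1.07). ALG5, which makes dolichol-phosphate glucose, had 32.7 (29.8 to 35.5) and 24.7 (22.2 to 27.3), lower by 1.32-fold, and MPDU1, which is needed for the use of both donors, 57.9 (54.3 to 61.6) and 45.1 (42.0 to 48.3), lower by 1.28-fold. The scaling to equal summed FPKM, the largest shift tried, raised every log2 fold change by 0.20. MPDU1, the smallest of the 5 differences, was at -0.36, so no scaling tried could change the direction of these genes.

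These 5 donor genes have short transcripts, from 396 bases for DPM3 to 1416 for MPDU1 in the canonical transcripts of GENCODE, and fold changes in this pair of libraries went with transcript length. Over all tested genes the median log2 fold change was -0.39 for transcripts under 1000 bases, -0.18 from 1000 to 2000, 0.03 from 2000 to 4000 and 0.22 at 4000 and above. Among the 864 genes under 1000 bases, where DPM2 and DPM3 belong, 29.5% were past the threshold on the lower side. Among the 4734 genes at 4000 bases and above, where GFPT1, PGM3, NUS1 and ALG12 belong, 15.2% were past it on the higher side. With the running median at the same length subtracted, DPM3 was at -0.52, DPM2 and DPM1 at -0.33 each, MPDU1 at -0.15 and ALG5 at -0.14, so all 5 stayed below genes of their length and none was past the threshold any more. PMM1, with 1242 bases, went from -0.54 to -0.28, and ALG14, with 9375 bases, from -0.15 to -0.45. The value of ALG14 is doubtful. In WT cells its limits were as wide as those of 294 fragments at 17.4 FPKM. Those of GNPNAT1, with 3867 bases, were as wide as those of 1487 fragments at 19.9 FPKM. The length behind the deposited FPKM of ALG14 may thus be far shorter than 9375 bases. Among the 7 higher genes PGM3 was then at 0.81, DPAGT1 at 0.65, ALG2 at 0.61 and ALG12 at 0.59, still past the threshold of 0.58, whereas UAP1 was at 0.53, NUS1 at 0.48 and GFPT1 at 0.33. Whether length itself or a property of short transcripts accounts for the pattern was not tested. The lengths that entered the deposited FPKM are not known and may differ from those of GENCODE, so the subtraction is approximate for single genes.

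The promoter windows of the 3 DPM genes share CCGGAAG, the core of the motif that the GA-binding protein GABP recognises and that the study followed in its reduced mitochondrial genes. CCGGAAG stands in 10.3% of all windows and in those of 21.7% of tested genes. It was found in 12 of the 34 genes, which are 6 of the 20 that were higher in PERK-KO cells, PGM3 and GANAB included, and 6 of the 14 that were lower. The stretches are shown because all 3 subunits of the synthase carry the letters, with CCGGAAG or its reverse complement in capitals. They lie at chr20:50958533-50958574, chr9:127937855-127937909 and chr1:155140512-155140568, all on the minus strand of GRCh38.p14.
DPM1: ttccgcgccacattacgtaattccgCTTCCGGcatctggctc
DPM2: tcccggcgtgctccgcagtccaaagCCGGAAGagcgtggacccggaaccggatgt
DPM3: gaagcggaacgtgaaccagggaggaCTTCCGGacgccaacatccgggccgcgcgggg
The motif was chosen with the study's interest in GABP known, and its presence in genes of both directions is a description only.

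The transferases of the cytosolic face held 2 of the 7 higher genes, and none of the 6 was lower with limits apart. DPAGT1, on chromosome 11 from 118967213 to 118972785, adds the first GlcNAc phosphate to dolichol phosphate and is the target of tunicamycin. It was at 15.8 FPKM (14.5 to 17.1) in WT cells against 23.8 (22.2 to 25.5) in PERK-KO cells, 1.51-fold higher (1.36 to 1.68). ALG13 and ALG14 together add the next GlcNAc, ALG13 as the catalytic part and ALG14 as its membrane anchor. ALG13 was at 9.57 (8.81 to 10.3) and 11.3 (10.4 to 12.2) with limits apart, and ALG14 at 17.4 (15.4 to 19.4) and 15.6 (13.5 to 17.7) with overlapping limits, so the ratio of ALG13 to ALG14 was 0.551 in WT cells against 0.725 in PERK-KO cells (factor 1.32, 1.07 to 1.61). ALG1, which adds the first mannose, had the same 12.3 FPKM in both samples, with a ratio of 0.997 (0.892 to 1.11). ALG2, which adds the next mannoses and lies on chromosome 9 from 101978707 to 101984246, was at 9.45 FPKM in WT cells against 14.1 in PERK-KO cells with limits apart, a ratio of 1.50 (1.32 to 1.69). ALG11 closes the cytosolic series and was the weakest of the 36, at 2.83 (2.22 to 3.44) and 3.62 (2.95 to 4.30) with overlapping limits. DPAGT1 and ALG2 are only just past the threshold, and DPM1 and PMM1 only just short of it, so the counts turn on small shifts. ALG2 was no longer past the threshold with a pseudocount of 0.1, and neither ALG2 nor DPAGT1 was after rescaling to a median difference of 0.

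Of the lumenal mannosyltransferases, ALG12 and ALG9 were higher and ALG3 was not. ALG12, on chromosome 22 from 50296854 to 50312106, adds the mannose onto which ALG9 then places the last one. It had 17.4 FPKM (16.1 to 18.6) in WT cells against 29.6 (27.8 to 31.4) in PERK-KO cells, 1.70-fold higher (1.55 to 1.87), the largest difference among the transferases. ALG9, which acts before and after ALG12, was at 5.19 (4.76 to 5.62) and 7.39 (6.81 to 7.96), a ratio of 1.42 (1.27 to 1.59). ALG3, which adds the first lumenal mannose, was at 55.0 (51.9 to 58.1) and 51.3 (47.9 to 54.7), and its limits overlapped. The 3 enzymes all draw on dolichol-phosphate mannose, whose synthase genes were lower in the same sample.

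ALG12 was the one gene of the 34 whose window held the ER stress response element, written here as CCAAT, 9 bases of any kind and CCACG, to which ATF6 binds together with NF-Y. The element stands in 0.0769% of all windows and in those of 15 of 9969 tested genes. The related ER stress response element II, ATTGG, 1 base and CCACG, was found in none of the 34 genes. That second element stands in 0.0541% of all windows and in those of 0.140% of tested genes. The 250 bases before the start of ALG12 are shown because they hold the first element, in capitals, at chr22:49918439-49918688 on the minus strand of GRCh38.p14.
ALG12: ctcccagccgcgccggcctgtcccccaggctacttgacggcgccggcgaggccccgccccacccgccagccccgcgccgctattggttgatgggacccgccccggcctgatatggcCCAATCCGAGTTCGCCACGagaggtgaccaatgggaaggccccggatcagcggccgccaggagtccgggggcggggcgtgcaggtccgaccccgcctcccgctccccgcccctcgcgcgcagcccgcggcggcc

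The lumenal glucosyltransferases add the glucoses that oligosaccharyltransferase recognises, and they differed least among the transferases. ALG6 had 11.5 FPKM (10.7 to 12.4) in WT cells against 12.8 (11.9 to 13.8) in PERK-KO cells, and ALG8 72.1 (68.0 to 76.1) and 64.7 (60.9 to 68.5), with overlapping limits in both cases. ALG10 and ALG10B are paralogs for the terminal glucose, at 5.51 and 4.05 FPKM in WT cells against 5.98 and 4.84 in PERK-KO cells. The limits of ALG10B were narrowly apart, with a ratio of 1.20, but the coding sequences of the paralogs are 97.7% identical and 42.6% of the 50-base windows of ALG10B also occur in ALG10, so that the split of reads between them is uncertain. All 4 genes lay between ratios of 0.898 and 1.20.

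**Figure D2:**
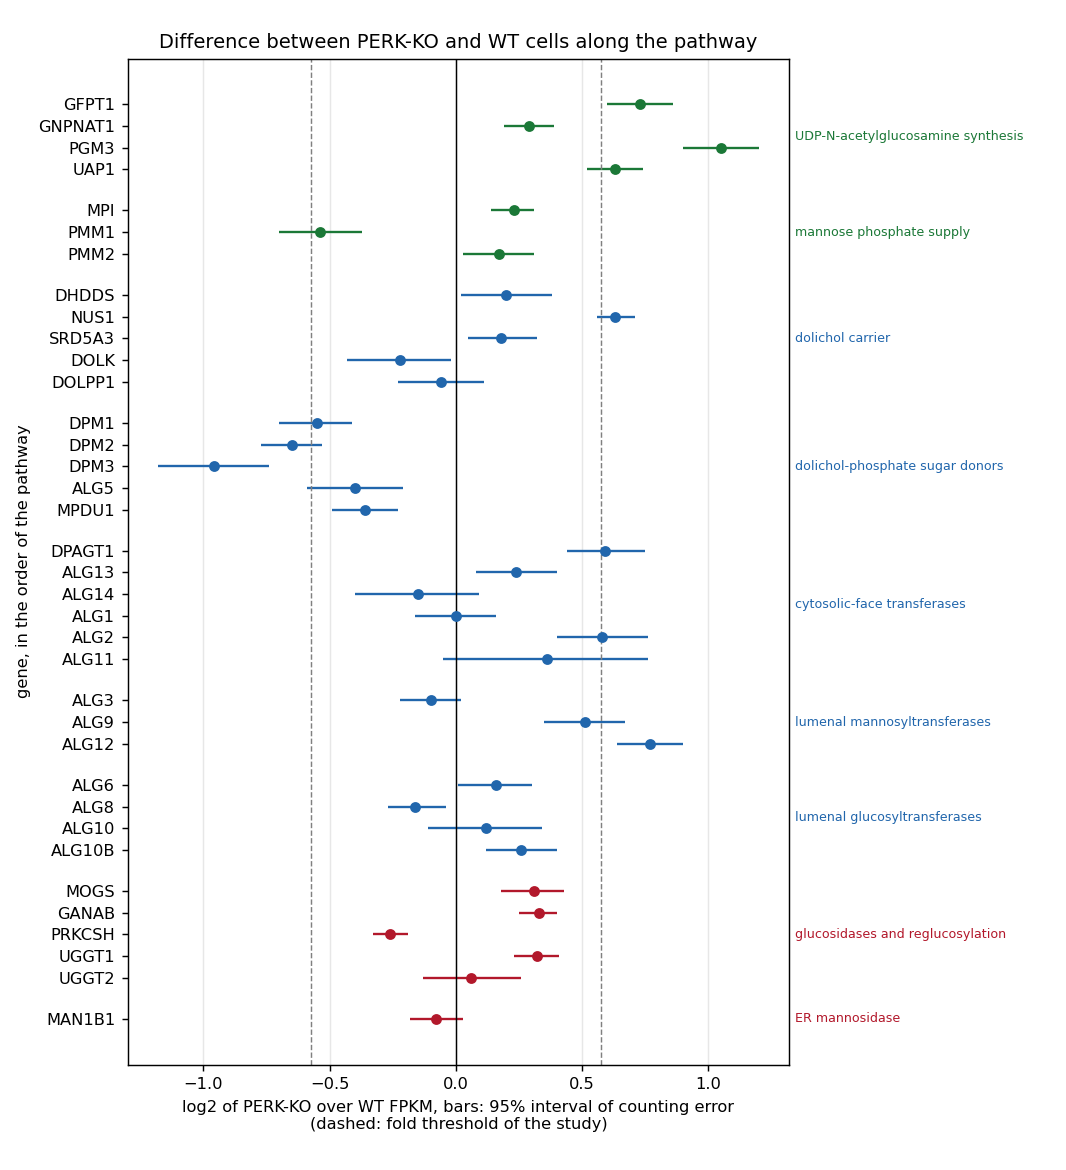
Log2 of PERK-KO over WT FPKM for the 36 genes in the order of the pathway, coloured by class, with the 95% interval of the counting error as bars and the fold threshold as dashed lines (1 sample per genotype). The UDP-GlcNAc genes lie to the right, the 5 dolichol-phosphate sugar donors to the left, and the trimming enzymes between the dashed lines.

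None of the 6 trimming genes was past the threshold in either direction. MOGS, the glucosidase I that removes the outermost glucose, was at 25.7 FPKM (24.0 to 27.3) in WT cells against 31.8 (29.8 to 33.8) in PERK-KO cells, with a ratio of 1.24 with limits apart. Glucosidase II, which removes the inner glucoses, is made of the catalytic GANAB and the regulatory PRKCSH, and these are the most abundant messages of the 36 in both samples. GANAB, on chromosome 11 from 62392298 to 62414104, was at 220 (212 to 228) and 276 (266 to 286), higher by 0.33 on the log2 scale (0.25 to 0.40). PRKCSH, on chromosome 19 from 11546269 to 11561782, was at 238 (230 to 246) and 199 (192 to 206), lower by 1.20-fold. The subunits therefore parted, each with limits apart, and the ratio of GANAB to PRKCSH turned from 0.925 in WT cells to 1.39 in PERK-KO cells, a change by 1.50-fold (1.40 to 1.61). Of the folding sensors that put a glucose back, UGGT1 was at 16.9 (16.1 to 17.8) and 21.2 (20.2 to 22.1), with limits apart, while its weaker paralog UGGT2 was at 4.69 (4.25 to 5.14) and 4.90 (4.42 to 5.39) with overlapping limits. UGGT1 transcripts are long, at 10761 bases, and after the same subtraction its log2 fold change went from 0.32 to -0.05. MAN1B1, the mannosidase that trims a mannose from the middle branch, was at 52.9 (50.2 to 55.7) and 50.2 (47.4 to 52.9), and its limits overlapped.

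**Figure D3:**
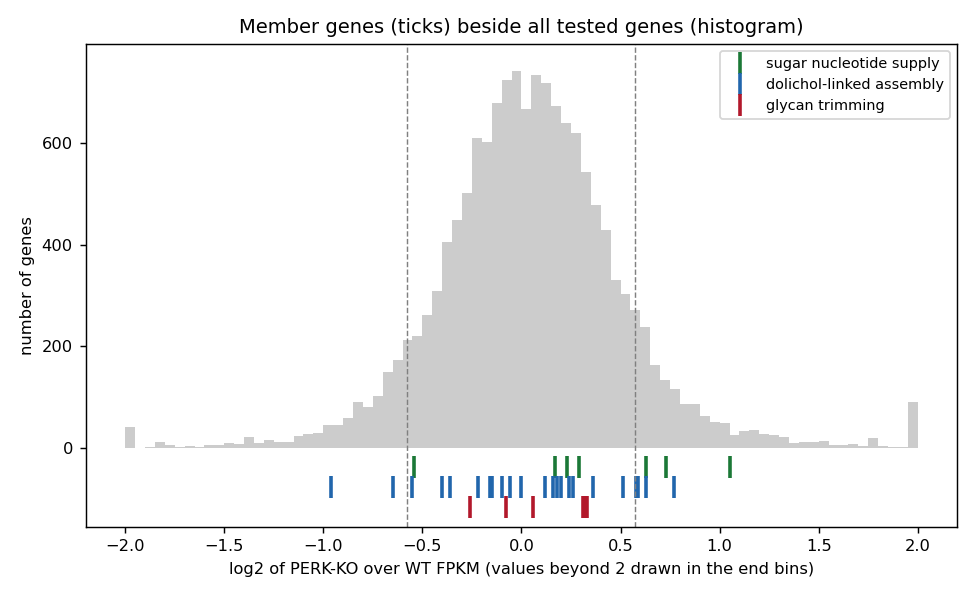
Number of genes by log2 of PERK-KO over WT FPKM for all tested genes above 0 in both samples (grey histogram) with the 36 genes as ticks below it, 1 row per class. The ticks reach from DPM3 at -0.96 to PGM3 at 1.05 and most lie between the dashed lines of the fold threshold.

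In 8 of the 36 genes the exons of the canonical transcript overlap those of another protein-coding gene, and the sources used here do not state that strand was used in counting. The overlap was largest for ALG11, which shares 84.9% of its exonic bases with UTP14C, and reached 38.5% for MPI with FAM219B, 31.7% for ALG9 with a readthrough gene and 25.2% for ALG1 with EEF2KMT. These overlaps are those of the GENCODE transcripts. On chromosome 15 the deposited position of MPI ends at 75190565 and that of FAM219B starts at 75192328, so these positions do not overlap. PGM3 shares a smaller part with DOP1A on the opposite strand, listed in the files as DOPEY1, which was itself at 1.82 FPKM (1.60 to 2.05) in WT cells against 3.71 (3.35 to 4.06) in PERK-KO cells. In the other 6 genes past the threshold on the higher side, and in the DPM genes, no such overlap was found.

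Oligosaccharyltransferase, which acts between assembly and trimming, differed by more in its catalytic subunits. Of its 12 listed genes 3 (25.0%) were past the threshold on the higher side and 1 (8.33%) on the lower. Among all tested genes these shares were 10.5% and 7.83%. The median log2 fold change of the 12 genes was 0.33. STT3B was at 26.9 FPKM (25.4 to 28.4) in WT cells against 61.4 (58.9 to 63.8) in PERK-KO cells, and STT3A at 55.4 (53.3 to 57.4) and 114 (111 to 117), so both catalytic subunits were more than 2-fold higher. The small subunit OST4, whose transcript has 442 bases, was at 392 (368 to 415) and 259 (241 to 277), lower by 1.51-fold, and DAD1 was at 178 (170 to 186) and 156 (148 to 165). With the running median over transcript length subtracted, STT3B was at 1.06 and STT3A at 0.85 on the log2 scale, OST4 at -0.15 and DAD1, with 684 bases, at 0.24, and 11 of the 12 genes lay above 0.

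Downstream of glycan trimming, 6 of the 12 genes of the calnexin cycle and of the glycan-dependent degradation of ER proteins were past the threshold on the higher side and none on the lower, with a median log2 fold change of 0.58. SYVN1, the ubiquitin ligase, was at 26.4 FPKM (24.7 to 28.1) in WT cells against 73.5 (70.3 to 76.7) in PERK-KO cells, and its partner SEL1L at 8.62 (8.02 to 9.21) and 20.5 (19.3 to 21.6). The lectin OS9 was lower, at 87.8 (84.6 to 91.0) and 76.2 (73.3 to 79.2), and the cytosolic glycosidase ENGASE had 13.7 and 12.9 with overlapping limits. In the list of 16 unfolded protein response genes, which was drawn up with their higher level in these data already known and is no independent evidence, 13 were past the threshold and the median ratio was 2.38-fold. HYOU1 at 5.21-fold and HERPUD1 at 4.41-fold led that list, and DDIT3 at 1.14-fold and TRIB3 at 1.26-fold closed it. The 36 genes thus had smaller differences in their median than these lists, and PGM3, the largest, was below the median of the unfolded protein response genes.

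Upstream, none of 9 listed genes of the mevalonate pathway and its branches was past the threshold, with a median log2 fold change of -0.11. GGPS1, a prenyl diphosphate synthase, was at 19.5 FPKM (18.2 to 20.9) in WT cells against 23.0 (21.4 to 24.6) in PERK-KO cells, IDI1 at 58.7 and 59.4, FDPS at 103 (98.4 to 108) and 89.0 (84.3 to 93.8), and PMVK at 51.3 (48.2 to 54.4) and 37.6 (34.8 to 40.4). NUS1 was thus higher without a like difference in these 9 genes. Among 16 other enzymes of nucleotide sugar metabolism 3 (18.8%) were past the threshold higher and 1 (6.25%) lower, with a median of 0.12. Of all tested genes 10.5% and 7.83% were past it. GMPPB, which makes GDP-mannose from the product of PMM1 and PMM2, was at 12.8 FPKM (11.3 to 14.2) in WT cells against 34.7 (32.0 to 37.5) in PERK-KO cells, 2.72-fold higher (2.38 to 3.11), more than any of the 36 genes. Hexokinase HK2 was at 10.1 (9.57 to 10.6) and 19.9 (19.1 to 20.7). GALK1, which phosphorylates the galactose that replaced glucose in the medium, was at 49.0 (46.1 to 51.9) and 29.9 (27.4 to 32.3), lower by 1.64-fold, and AMDHD2, which takes acetylated glucosamine phosphate out of the UDP-GlcNAc route, was at 25.7 (23.5 to 27.9) and 21.1 (19.0 to 23.2).

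**Figure D4:**
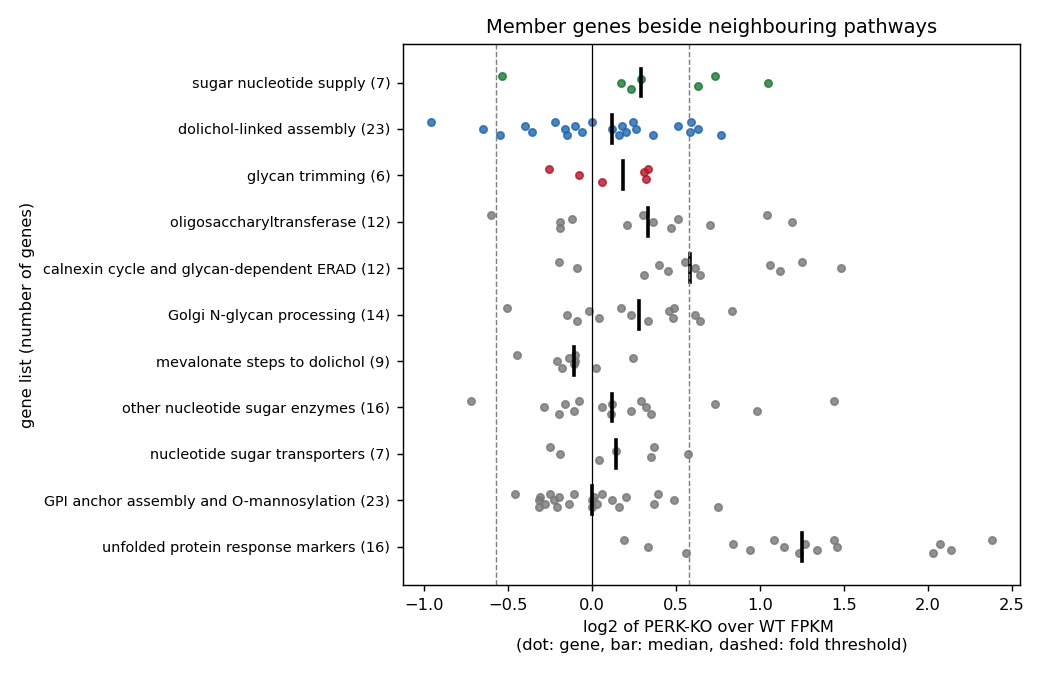
Log2 of PERK-KO over WT FPKM for the 3 classes of the 36 genes (coloured) and for lists of neighbouring pathways (grey), each dot a gene, the black bar the median and the dashed lines the fold threshold (1 sample per genotype). The unfolded protein response genes lie farthest to the right, and the mevalonate genes cluster just left of 0.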

How the data were processed

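RNA of WT and PERK-KO HEK293 cells was sequenced from poly(A) mRNA, with 1 sample per genotype. Per the submitters' processing notes and the methods, the authors mapped reads to GRCh37/hg19 with TopHat2 2.0.13 and deposited FPKM per gene with confidence limits from Cufflinks 2.2.1. The depth is unknown, since no read counts were used here. FPKM are not counts, so no count model was fitted, and with 1 sample per genotype no p-value was computed.

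Fold changes were PERK-KO over WT without a pseudocount, over the 14594 rows that reached 1 FPKM in either sample. The 95% intervals treat the limits as the value minus and plus 2 SD and cover the error within 1 library only, called counting error here. Transcript lengths, exons and coding sequences came from canonical transcripts of GENCODE 44 on GRCh37, matched by symbol and position for 18822 rows, 85.3% of tested rows and all 36 genes. The running median spanned 201 genes. All 36 genes are named with values, and of each neighbouring list the 2 largest and 2 smallest differences. HSPA5, EIF2AK3, PIGC and PIGH are named besides. IRS4, VIM, NEFL, DOPEY1, GFPT2 and NAGK were singled out after their values were seen. The genes, lists and motifs were chosen with earlier results of these data known. Python 3.11.15 with numpy 2.4.6, pandas 2.3.3 and Biopython 1.88 was used, and the calculations were tested on simulated data. Alternatives were other filters on low values, pseudocounts, scalings, thresholds, a correction for transcript length and summed rows of one name.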

Additional observations from a re-analysis of the deposited data

How the results depend on the processing

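No paired analysis was possible because each genotype has 1 sample, and for the same reason no replicate could be left out. The 7 higher and 2 lower genes were the same genes without a filter on low values, with 1 FPKM reached in each sample, with 5 FPKM reached in either, with rows of one name summed, and when limits also had to be apart. The counts of higher genes were 6 and 5 with pseudocounts of 0.1 and 1. With the running median over transcript length subtracted, 4 genes were higher and 0 lower, against 6.34% and 5.24% of all genes with a length. The median of the 36 genes was then 0.05, against 0.00 for all tested genes with a length. The neighbouring lists then held 0 lower genes, and the log2 fold changes of ALG10B, UGGT1, UGGT2 and ALG3 turned to -0.03, -0.05, -0.12 and 0.05. At a 2-fold threshold 1 gene was higher and 0 lower, against 3.28% and 2.08% of all tested genes (18 and 0 in the neighbouring lists, against 29 and 2 at the threshold of the study), and at a threshold of 0.32 on the log2 scale 10 were higher and 6 lower, against 24.3% and 18.4% (48 higher and 5 lower in the lists). Limits apart at any fold gave 15 and 7 genes, or 41.7% and 19.4%, against 26.1% and 18.7% of all tested genes (54 and 17 in the lists). Scaling to equal summed FPKM, added after the data had been seen, gave 1 lower gene, 0 in the lists, and a median of 0.38, with all genes raised alike. Under it DOLPP1, ALG14, ALG1, ALG3, ALG8 and MAN1B1, all with overlapping limits, changed sign. The causes were not tested. The limits of ALG11 were the widest of the 36 genes, 21.6% away in WT cells.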

Other observations

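Beyond the ER, 3 of 14 Golgi genes of N-glycan processing were higher in PERK-KO cells past the fold threshold and none was lower past it. Of all tested genes 10.5% were higher and 7.83% lower. The median log2 fold change of the 14 genes was 0.28. The mannosidases MAN1A2, at 8.60 FPKM (8.02 to 9.18) in WT cells against 15.3 (14.5 to 16.1) in PERK-KO cells, and MAN1A1, at 6.62 and 10.3 with limits apart, led the list, while the third of the family, MAN1C1, had 3.30 and 2.98 with overlapping limits. MGAT4B, a GlcNAc transferase that uses the UDP-GlcNAc described above, was lower, at 84.7 (80.5 to 89.0) and 59.6 (56.2 to 62.9). With the running median over transcript length subtracted, MAN1A2 was at 0.47 on the log2 scale, MAN1A1 at 0.44 and MGAT4B at -0.50. No gene of this list was then past the threshold, and its median was 0.11.

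GPI anchor assembly and O-mannosylation also use dolichol-phosphate mannose. Of 24 listed genes 23 were tested, and their median was -0.00. Past the fold threshold, 1 (4.35%) was higher and none lower, against 10.5% and 7.83% of all tested genes. PIGA, the catalytic subunit of the first step, was 1.68-fold higher with limits apart, and PIGK, of the transamidase, was at 7.75 FPKM (7.15 to 8.34) and 10.9 (10.2 to 11.7). PIGP was at 46.1 (41.9 to 50.2) and 33.6 (29.9 to 37.2), and PIGQ at 37.3 (35.4 to 39.3) and 29.9 (28.1 to 31.7). With the running median over transcript length subtracted, PIGA was at 0.64 on the log2 scale, PIGQ at -0.37 and PIGP, with 707 bases, at -0.04. PIGP and PIGQ belong to the same complex as PIGA and were lower with limits apart. PIGC and PIGH of that complex had overlapping limits, though the interval of PIGH (0.732 to 0.966) did not include 1. None of the 7 nucleotide sugar transporters was past the threshold, with a median of 0.14. SLC35D1 had the largest ratio at 1.48 and SLC35C1 followed at 1.29, while SLC35A2, the UDP-galactose transporter, was at 32.1 (29.9 to 34.4) and 27.1 (25.0 to 29.2), and SLC35D2 at 3.93 and 3.45 with overlapping limits.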
